A study of Mus musculus with 2 samples.

Results

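The genes described here encode the non-collagen glycoproteins of the extracellular matrix: laminins and their basement membrane partners, adhesive and matricellular proteins, the elastic fibre with its fibulins and EMILINs, the latent TGF-beta binding proteins and the lysyl oxidases. The 47 genes were taken by symbol from a list of such proteins, and all 47 were found among the 24319 rows of each table. They were read in dermal lymphatic endothelial cells (LECs) of C57BL/6 mouse embryos at E15.5 (embryonic day), in 1 library labelled Dot1l knockout and 1 library labelled wild type. Dot1l encodes the enzyme that methylates lysine 79 of histone H3. The knockout is described in the labels as endothelial, and no Cre line is named in the sources used here. Each library was made from RNA pooled from 2 to 3 biological replicates. The labels also hold a culture protocol for primary dermal LECs, without saying whether the sequenced cells were cultured.

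Laminins are trimers of an alpha, a beta and a gamma chain that polymerise into the sheet on which endothelial and epithelial cells rest, and nidogens and perlecan join that sheet to collagen IV. Elastic fibres consist of crosslinked elastin on a scaffold of fibrillin microfibrils. In skin, initial lymphatic vessels have a sparse basement membrane and are tied to the surrounding matrix by anchoring filaments rich in fibrillin. Fibroblasts, mural cells and epithelium make many of these proteins beside the endothelium.

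The values are FPKM (fragments per kilobase of transcript and per 1000000 mapped fragments) as deposited, which sum to 530294 in the library labelled knockout and 415537 in the wild-type library. An estimate from the low values put the depth at about 9080000 fragments in the library labelled knockout and 10200000 in the wild-type library, if no further scaling was applied. With 1 library per genotype there is no test, no SD and no p-value, and no difference below has a replicate check. Dot1l itself was 10.4 FPKM in the library labelled knockout and 5.86 FPKM in wild type, a 1.77-fold higher level that goes against the label. The value covers the whole gene, including any part that was not deleted, so it cannot check the label, and the directions below are those of the library as labelled. Of the 10 lymphatic endothelial markers examined 9 reached 1 FPKM, and 7 of these 9 were lower by 2-fold or more in the library labelled knockout and 1, Stab2, higher. Prox1, the transcription factor of lymphatic fate, was 13.1 FPKM in the library labelled knockout and 59.3 FPKM in wild type. Lyve1, a hyaluronan receptor of LECs, was 552 FPKM in the library labelled knockout and 526 FPKM in wild type. Macrophage markers were higher in the library labelled knockout, as given below, and the part of macrophages in the Lyve1 value was not tested. Ccl21a, the marker that did not reach 1 FPKM, was 0 in the library labelled knockout and 0.538 FPKM in wild type. The 10 values spanned 0 to 552 FPKM in the library labelled knockout and 0.538 to 669 FPKM in wild type. The 16 fibroblast markers lay between 0.570 and 391 FPKM in the library labelled knockout and between 3.18 and 1481 FPKM in wild type, so transcripts typical of fibroblasts were present in both.

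Most matrix glycoprotein genes had lower levels in the library labelled knockout. Differences are given on the scale log2(FPKM + 1), knockout minus wild type, which compresses the differences of genes near 0 FPKM, and a gene counts as higher or lower at 2-fold on that scale. Of the 47 genes 46 reached 1 FPKM in at least 1 library, and Lama1 did not. Among these 46, 31 were at least 2-fold lower, against 15.49% of all 13296 genes that reached this level. A further 3 of the 46 were at least 2-fold higher, against 16.8% of all genes, and 12 lay within 2-fold. The 31 lower genes make up 67.4% of the members that passed the minimum, and the 3 higher genes 6.52%. The median difference was -1.69, against 0.00 over all genes, and the middle range of the members (lower to upper quartile) was -1.99 to -0.48, against -0.62 to 0.63 over all genes. With the FPKM of both libraries brought to a total of 1000000, 33 members were lower and 2 higher, beside 3330 lower and 1900 higher genes overall (2060 and 2231 as deposited) and a shift of the median gene to -0.33. In these bulk libraries fewer cells of a type and less RNA per cell cannot be told apart.

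**Figure D1:**
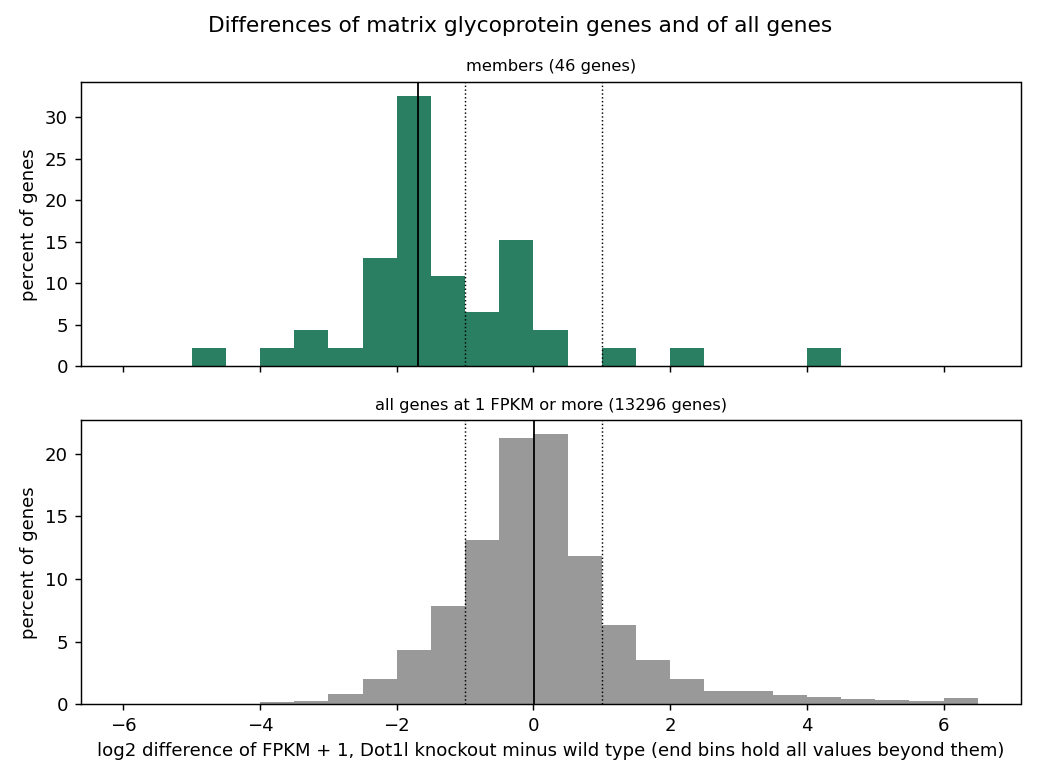
Percent of genes (vertical axis) by log2 difference of FPKM + 1, Dot1l knockout minus wild type (horizontal axis, bins of 0.5), for the 46 members at 1 FPKM or more (top) and all 13296 such genes (bottom). Solid lines mark the medians (-1.69 for members and 0.00 for all genes) and dotted lines a 2-fold difference; most members lie left of the lower dotted line.

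The excess of lower genes did not rest on the threshold. At least 1.5-fold lower were 33 of the 46 members, against 25.9% of all genes, and at least 1.5-fold higher were 3, against 26.1%. At 3-fold the lower members numbered 25, against 6.81% of all genes, and the higher members 2, against 9.76%. Among genes with a mean of at least 10 FPKM over both libraries, a subset chosen after seeing the data, 24 of 33 members were at least 2-fold lower, against 12.3% of 6731 genes, and 3 were at least 2-fold higher, against 16.7%. Just inside the threshold lay Lamc3, with a difference of -1.06, and just outside it Tnxb, with -0.98.

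The members together summed to 1419 FPKM in the library labelled knockout and 3898 FPKM in wild type, which is 0.268% of all FPKM in the library labelled knockout and 0.938% in wild type. The 3 most abundant members were Sparc, Thbs1 and Fn1 in the library labelled knockout, holding 40.9% of the members' sum, and Sparc, Postn and Sparcl1 in wild type, holding 50.2%. In the library labelled knockout 24 members reached 10 FPKM, against 34 in wild type, and 4 reached 100 FPKM, against 9. No member was listed at 0 in either library. Without Sparc and Postn the sum was 1080 FPKM in the library labelled knockout and 2233 FPKM in wild type.

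**Figure D2:**
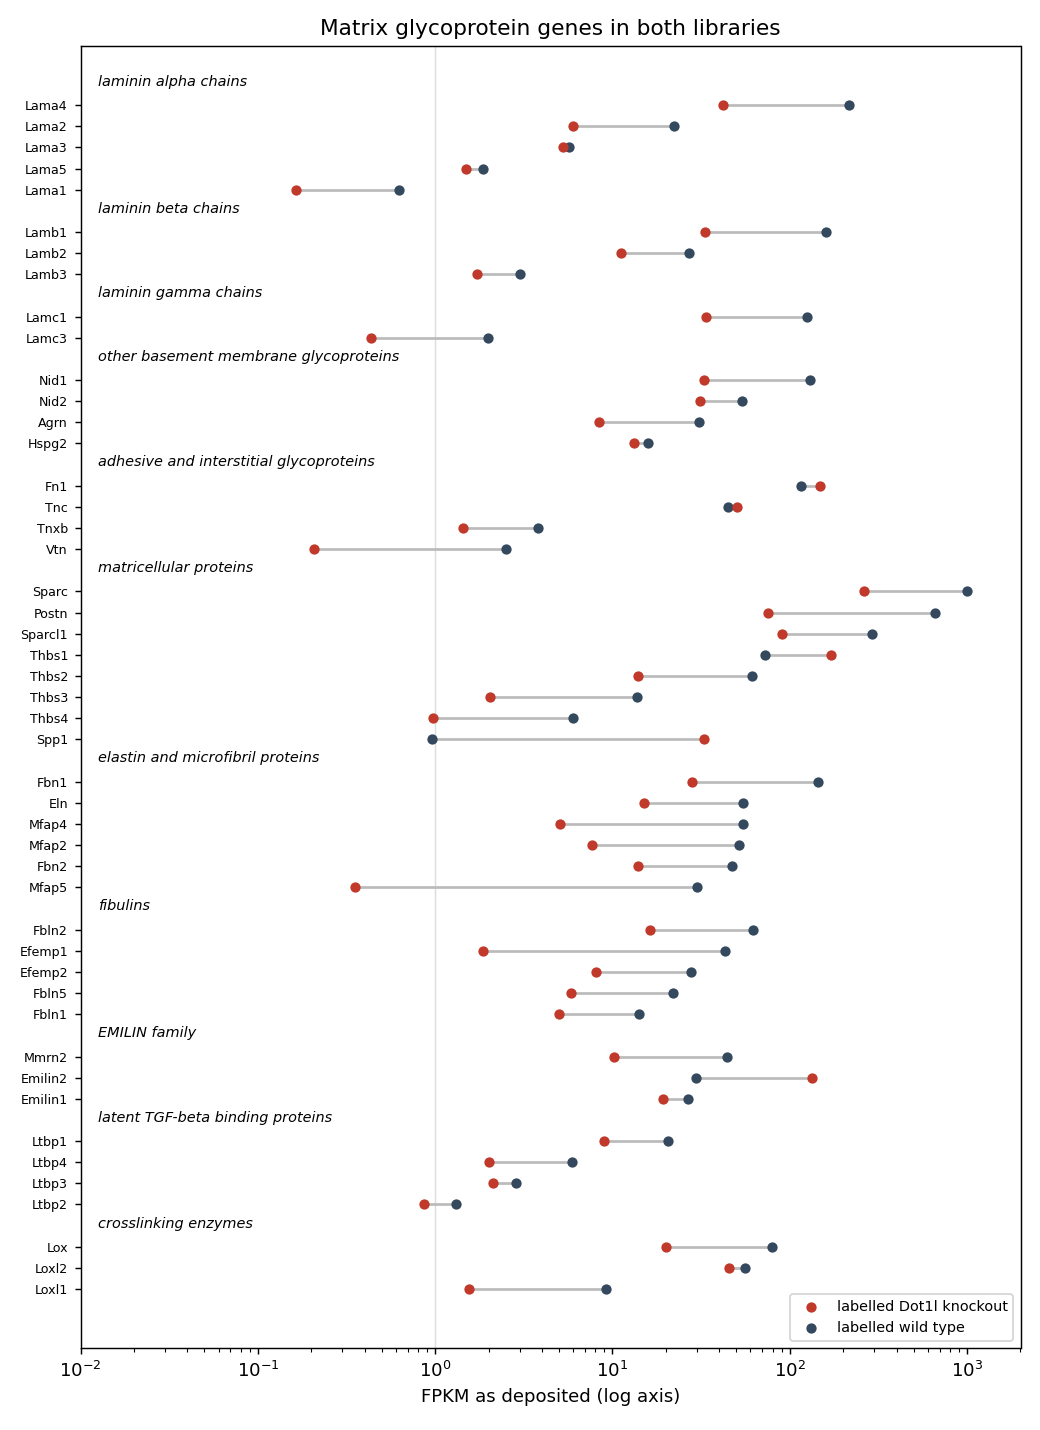
FPKM of each of the 47 members (horizontal log axis) in the library labelled Dot1l knockout (red) and the wild-type library (dark blue), 1 library each, grouped by role. Red points lie left of dark blue ones for most genes; Spp1, Emilin2 and Thbs1 are the members that were higher by 2-fold or more.

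Among laminin alpha chains, the abundant chain of vessels was lower while the epithelial chains differed little. Lama4, the alpha chain typical of vascular basement membranes, was 42.2 FPKM in the library labelled knockout and 216 FPKM in wild type, 5.12-fold lower. Lama2, the chain of muscle and nerve sheaths, was 6.02 FPKM in the library labelled knockout and 22.1 FPKM in wild type, 3.67-fold lower. Lama3, an epithelial chain, was 5.27 FPKM in the library labelled knockout and 5.67 FPKM in wild type. The other two alpha chains were at low levels. Lama5, which is found in mature endothelium and epithelium, was 1.496 FPKM in the library labelled knockout and 1.85 FPKM in wild type, and Lama1, a chain of the early embryo, was 0.163 FPKM in the library labelled knockout and 0.627 FPKM in wild type. Lama4 accordingly held 76.5% of the summed alpha-chain FPKM in the library labelled knockout and 87.7% in wild type, and Lama3 held 9.55% in the library labelled knockout and 2.30% in wild type.

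The beta and gamma chains that pair with Lama4 were lower too, by unequal factors. Lamb1, the most widely used beta chain, was 33.4 FPKM in the library labelled knockout and 160 FPKM in wild type, 4.80-fold lower. Lamc1, the gamma chain of most laminin trimers, was 33.6 FPKM in the library labelled knockout and 125 FPKM in wild type, 3.70-fold lower. The ratio of Lamb1 to Lamc1 was 0.992 in the library labelled knockout and 1.29 in wild type, and that of Lama4 to Lamc1 was 1.26 in the library labelled knockout and 1.74 in wild type. Lamb2, a beta chain of synapses, kidney glomeruli and vessels, was 11.2 FPKM in the library labelled knockout and 27.1 FPKM in wild type. It was 2.42-fold lower and took 24.2% of the beta-chain sum in the library labelled knockout against 14.2% in wild type. Lamb3, the partner of Lama3 in epidermis, was 1.71 FPKM in the library labelled knockout and 3.00 FPKM in wild type, within 2-fold on the log2(FPKM + 1) scale. Lamc3 was 0.435 FPKM in the library labelled knockout and 1.99 FPKM in wild type, with a difference of -1.06.

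Of the 4 other basement membrane glycoproteins 2 were at least 2-fold lower. The nidogens, which bridge the laminin and collagen IV networks, differed unequally. Nid1 was 32.8 FPKM in the library labelled knockout and 131 FPKM in wild type, 3.98-fold lower, and Nid2 was 31.0 FPKM in the library labelled knockout and 53.9 FPKM in wild type, 1.74-fold lower. Their levels were thus nearly equal in the library labelled knockout (a Nid1 to Nid2 ratio of 1.06) and apart in wild type (2.42). Agrn, which encodes agrin, a heparan sulphate proteoglycan known for clustering acetylcholine receptors, was 8.34 FPKM in the library labelled knockout and 30.8 FPKM in wild type, 3.69-fold lower. Hspg2, which encodes perlecan, was 13.1 FPKM in the library labelled knockout and 15.9 FPKM in wild type.

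With the deposited FPKM on the log2(FPKM + 1) scale, only Vtn of the 4 adhesive and interstitial glycoproteins passed 2-fold. With a pseudocount of 5 Vtn did not (-0.53). Fn1, which encodes fibronectin, was 147 FPKM in the library labelled knockout and 116 FPKM in wild type, a difference of 0.35 that was gone (-0.00) with both totals brought to 1000000. Tnc, which encodes tenascin C, was 50.4 FPKM in the library labelled knockout and 44.9 FPKM in wild type, a difference of 0.16 that changed sign to -0.18 under the same rescaling. Fn1 was the third most abundant member in the library labelled knockout and the ninth in wild type. Tnxb, a tenascin of loose connective tissue, was 1.44 FPKM in the library labelled knockout and 3.82 FPKM in wild type. Its difference of -0.98 became -1.35 with a pseudocount of 0.1 and -1.46 with both totals brought to 1000000. Vtn, which encodes vitronectin, a plasma protein made mainly in liver, was 0.208 FPKM in the library labelled knockout and 2.52 FPKM in wild type. The Vtn value in the library labelled knockout rests on about 2.92 fragments, so its wild type over knockout ratio of 12.1 has a 95% counting interval (exact binomial, counting error only) of 3.76 to 59.7.

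All 8 matricellular genes passed 2-fold as deposited, 6 of them lower and 2 higher in the library labelled knockout. Thbs4 did not with a pseudocount of 5 (-0.88), nor Thbs1 with both totals brought to 1000000 (0.87). Matricellular proteins are secreted modulators of cell and matrix contact that are not themselves structural. Sparc, a collagen-binding protein and the most abundant member in both libraries, was 263 FPKM in the library labelled knockout and 1002 FPKM in wild type, 3.81-fold lower. Its relative Sparcl1 was 89.8 FPKM in the library labelled knockout and 292 FPKM in wild type, 3.25-fold lower. Postn, which encodes periostin, a protein of fibroblasts and remodelling connective tissue, was 75.4 FPKM in the library labelled knockout and 663 FPKM in wild type, 8.80-fold lower. Periostin took 5.31% of the members' summed FPKM in the library labelled knockout and 17.0% in wild type.

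The thrombospondins went both ways. Thbs1, an inhibitor of angiogenesis that also activates latent TGF-beta, was 170 FPKM in the library labelled knockout and 72.7 FPKM in wild type, 2.34-fold higher. Its closest relative Thbs2 was 13.9 FPKM in the library labelled knockout and 61.1 FPKM in wild type, 4.38-fold lower. The Thbs1 to Thbs2 ratio was therefore 12.2 in the library labelled knockout and 1.19 in wild type. Thbs3 and Thbs4, members of the pentameric branch of the family, were also lower: Thbs3 was 2.03 FPKM in the library labelled knockout and 13.8 FPKM in wild type, and Thbs4 was 0.971 FPKM in the library labelled knockout and 5.97 FPKM in wild type. Thbs1 held 91.0% of the thrombospondin FPKM in the library labelled knockout and 47.3% in wild type, and the family sum was 187 FPKM in the library labelled knockout and 154 FPKM in wild type. The Thbs1 difference as deposited was 1.22.

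Spp1 had the largest upward difference of the members. It encodes osteopontin, a secreted integrin ligand made by bone cells, macrophages and other cells. Spp1 was 32.9 FPKM in the library labelled knockout and 0.961 FPKM in wild type, 34.2-fold higher, where the wild-type value rests on about 12.9 fragments. In the same library all 13 macrophage markers measured were at least 2-fold higher, summing to 3686 FPKM in the library labelled knockout and 56.5 FPKM in wild type, and C1qc was listed at 0 in wild type. All 8 mast cell markers were higher as well, with sums of 12933 FPKM in the library labelled knockout and 104 FPKM in wild type. The lowest of these mast cell markers, Fcer1a, was 1.40 FPKM in the library labelled knockout and 0 in wild type. The part of these cells in the Spp1, Emilin2 and Thbs1 differences was not tested.

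**Figure D3:**
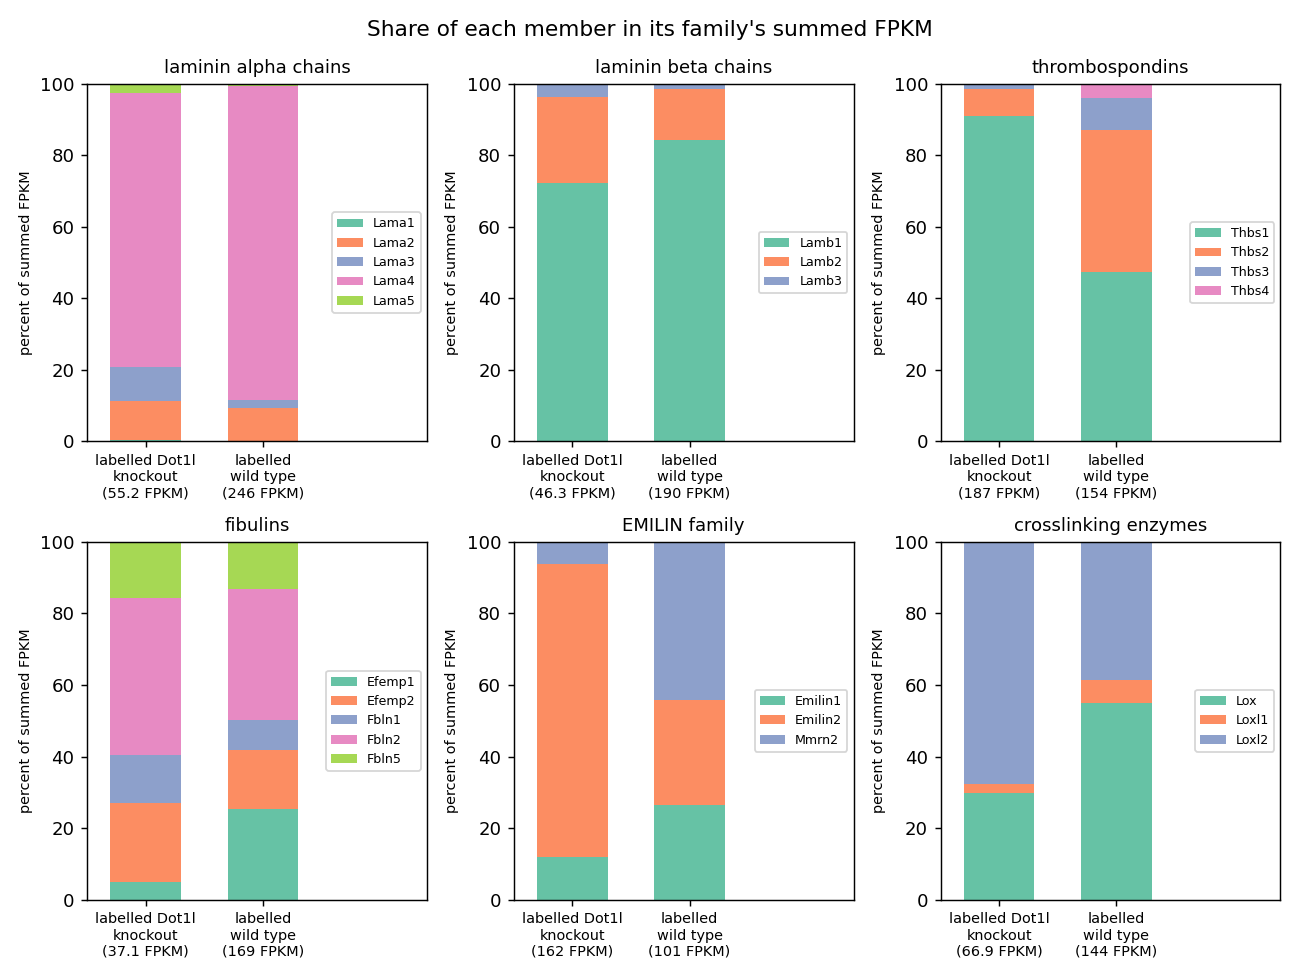
Share of each gene in the summed FPKM of its family (vertical axis, percent) in the library labelled Dot1l knockout (left bar) and the wild-type library (right bar), with the family's summed FPKM under each bar. Thbs1 takes 91.0% of the thrombospondins in the library labelled knockout and 47.3% in wild type, and Emilin2 takes 81.9% of the EMILIN family in the library labelled knockout and 29.3% in wild type.

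Every gene of elastin and its microfibrils was lower. Eln, the elastin gene, was 15.0 FPKM in the library labelled knockout and 54.6 FPKM in wild type, 3.64-fold lower. Fbn1, the main fibrillin, was 28.2 FPKM in the library labelled knockout and 144 FPKM in wild type, 5.13-fold lower, and Fbn2, the fibrillin of early development, was 13.9 FPKM in the library labelled knockout and 47.0 FPKM in wild type, 3.37-fold lower. The microfibril-associated proteins had larger differences than the fibrillins. Mfap2, which binds fibrillin, was 7.69 FPKM in the library labelled knockout and 51.6 FPKM in wild type, 6.71-fold lower. Mfap4, a fibrinogen-related protein of elastic fibres, was 5.04 FPKM in the library labelled knockout and 54.1 FPKM in wild type, 10.7-fold lower. Mfap5, the relative of Mfap2, was 0.352 FPKM in the library labelled knockout and 29.8 FPKM in wild type, the largest downward difference of all members (-4.51). The lower value rests on about 4.18 fragments, and the wild type over knockout ratio of 84.7 has a 95% counting interval of 34.2 to 326. The 6 genes had a median difference of -2.46.

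All 5 fibulins were lower as well, although Fbln1 did not reach 2-fold with a pseudocount of 5 (-0.94). Fibulins are glycoproteins that link elastin, fibrillin and basement membrane. Efemp1, which encodes fibulin-3, stood apart from the rest with 1.87 FPKM in the library labelled knockout and 42.9 FPKM in wild type, 22.9-fold lower. The other fibulins lay between 2.83-fold and 3.83-fold lower. Fbln2 was 16.2 FPKM in the library labelled knockout and 62.2 FPKM in wild type. Fbln5, which is needed for elastic fibre assembly in mice, was 5.85 FPKM in the library labelled knockout and 22.03 FPKM in wild type, and Efemp2, which recruits lysyl oxidase to elastin, was 8.11 FPKM in the library labelled knockout and 27.7 FPKM in wild type. Fbln1 was 4.99 FPKM in the library labelled knockout and 14.1 FPKM in wild type. Efemp1 took 5.05% of the fibulin FPKM in the library labelled knockout and 25.4% in wild type.

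The 3 EMILIN family genes diverged. Emilin2, a relative of Emilin1, was 133 FPKM in the library labelled knockout and 29.5 FPKM in wild type, 4.50-fold higher. Emilin1, an elastin-associated protein that holds lymphatic anchoring filaments in mice, was 19.2 FPKM in the library labelled knockout and 26.7 FPKM in wild type. Mmrn2, an endothelial family member that binds angiogenic growth factors, was 10.2 FPKM in the library labelled knockout and 44.5 FPKM in wild type, 4.37-fold lower. The Emilin2 to Mmrn2 ratio was 13.0 in the library labelled knockout and 0.662 in wild type. All 12 pan-endothelial markers were at least 2-fold lower in the same library, with sums of 324 FPKM in the library labelled knockout and 1474 FPKM in wild type and none at 0, and their part in the Mmrn2 and Lama4 differences was not tested.

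Latent TGF-beta binding proteins, which bind fibrillin and most of which hold TGF-beta inactive in the matrix, differed less. Ltbp1 was 9.003 FPKM in the library labelled knockout and 20.6 FPKM in wild type, 2.29-fold lower, and Ltbp4 was 2.01 FPKM in the library labelled knockout and 5.91 FPKM in wild type, 2.94-fold lower. Ltbp2 (0.864 FPKM in the library labelled knockout and 1.32 FPKM in wild type) and Ltbp3 (2.13 FPKM in the library labelled knockout and 2.85 FPKM in wild type) lay within 2-fold. Lysyl oxidases crosslink collagen and elastin. Lox was 19.99 FPKM in the library labelled knockout and 79.0 FPKM in wild type, 3.95-fold lower, and Loxl1, the form tied to elastin renewal, was 1.55 FPKM in the library labelled knockout and 9.18 FPKM in wild type, 5.93-fold lower. Loxl2, which acts on collagen IV, was 45.3 FPKM in the library labelled knockout and 55.8 FPKM in wild type. Loxl2 thereby exceeded Lox in the library labelled knockout (ratio 2.27) but not in wild type (0.706).

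Promoter sequences were found in RefSeq (GRCm38.p6, not the mm9 build named by the submitters) for 30 of the 47 genes. Each covers 250 bases before and 50 bases after the gene start, and where RefSeq lists several, the one with most annotated coding transcript starts was used. The 4 shown belong to the 2 genes with the largest downward and the 2 with the largest upward differences among those 30, and are given so that genes at both ends can be compared. Capitals mark matches, on either strand, to 5 short motifs: TATAAA (the TATA box), GGGCGG (the GC box), TGANTCA (for AP-1), GGAATG (for TEAD) and the CCAAT box; none of these motifs holds another.
Efemp1, chr11:28852955-28853254, plus strand: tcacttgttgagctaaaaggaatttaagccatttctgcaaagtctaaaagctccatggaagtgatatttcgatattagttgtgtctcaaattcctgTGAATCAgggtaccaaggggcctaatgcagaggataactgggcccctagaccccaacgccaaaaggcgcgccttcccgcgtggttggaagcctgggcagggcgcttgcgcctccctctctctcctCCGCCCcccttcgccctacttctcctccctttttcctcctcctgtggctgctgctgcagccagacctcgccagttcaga
Postn, chr3:54360857-54361156, plus strand: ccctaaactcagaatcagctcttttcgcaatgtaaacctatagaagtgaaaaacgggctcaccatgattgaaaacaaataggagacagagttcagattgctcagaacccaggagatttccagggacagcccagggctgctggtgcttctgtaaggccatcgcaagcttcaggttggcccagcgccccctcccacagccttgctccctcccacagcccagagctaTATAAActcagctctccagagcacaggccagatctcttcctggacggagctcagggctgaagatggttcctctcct
Spp1, chr5:104434861-104435160, plus strand: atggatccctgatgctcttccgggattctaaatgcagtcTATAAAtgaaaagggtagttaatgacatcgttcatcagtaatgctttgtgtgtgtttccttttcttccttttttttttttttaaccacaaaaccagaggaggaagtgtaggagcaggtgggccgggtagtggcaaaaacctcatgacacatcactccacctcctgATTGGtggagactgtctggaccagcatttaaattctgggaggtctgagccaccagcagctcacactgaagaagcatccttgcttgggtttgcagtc
Emilin2, chr17:71310962-71311261, minus strand: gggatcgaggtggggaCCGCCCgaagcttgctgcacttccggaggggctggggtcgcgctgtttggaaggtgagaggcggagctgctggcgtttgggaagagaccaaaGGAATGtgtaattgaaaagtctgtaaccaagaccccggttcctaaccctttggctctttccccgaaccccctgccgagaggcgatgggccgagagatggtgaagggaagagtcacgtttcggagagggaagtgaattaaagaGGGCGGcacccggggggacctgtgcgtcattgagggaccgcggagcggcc

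In these windows a TATA box began 26 bases before the Postn start and 211 bases before the Spp1 start, and Spp1 also held a CCAAT match 46 bases before its start. Efemp1 held an AP-1 match 154 bases and a GC box 29 bases before its start, and Emilin2 held a TEAD match and GC boxes. Over the 30 member promoters, GC boxes were found in 17 (56.7%), against 35.7% of all 32851 promoters in the table, and CCAAT in 7 (23.3%), against 37.4%. TATA boxes were found in 5 of 30 (16.7%, against 13.6%), TEAD matches in 4 (13.3%, against 14.7%) and AP-1 matches in 3, against 7.81% of all promoters. Among the 20 promoters of lower members 12 held a GC box, and among the 8 of members that did not pass 2-fold 4 did. The median GC content was 59.2% in the 30 member promoters and 52.7% in all promoters. All promoters here are every entry listed, some genes having several, whatever the expression of the gene. Members enter only with the chosen promoter, so these sets are not alike. A match is a description of the letters, and nothing about binding was measured.

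Other matrix genes were mostly lower too, in lists set up for comparison when earlier results of these data were already known. Of 9 basement membrane collagens at 1 FPKM or more 7 were at least 2-fold lower and none higher, with a median of -1.57. Col15a1, a collagen at the outer face of basement membranes, was 6.56 FPKM in the library labelled knockout and 40.3 FPKM in wild type, whereas Col7a1, the anchoring fibril collagen of epidermis, was 5.08 FPKM in the library labelled knockout and 8.22 FPKM in wild type. Of 13 fibrillar and interstitial collagens 12 were lower and none higher (median -1.83); Col11a1 was 1.503 FPKM in the library labelled knockout and 14.7 FPKM in wild type, and Col1a1, the exception, was 145 FPKM in the library labelled knockout and 268 FPKM in wild type. Of 35 other matrix glycoproteins 20 were lower and 3 higher (median -1.15), from Ecm2 with 1.11 FPKM in the library labelled knockout and 17.3 FPKM in wild type to Ecm1 with 9.91 FPKM in the library labelled knockout and 1.66 FPKM in wild type.

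Lists of matrix enzymes, receptors and TGF-beta genes are to be read beside the 15.49% of all genes that were lower and the 16.8% that were higher. Of 15 collagen processing enzymes 7 were lower and none higher (median -0.97). Pcolce, an enhancer of procollagen cleavage, was 7.42 FPKM in the library labelled knockout and 57.3 FPKM in wild type, and P4ha2, a prolyl hydroxylase, was 44.6 FPKM in the library labelled knockout and 29.2 FPKM in wild type. Of 27 matrix proteases and inhibitors 13 were lower and 6 higher (median -0.76). Mmp14, a membrane-bound collagenase, was 19.4 FPKM in the library labelled knockout and 121 FPKM in wild type, while Plau, the urokinase gene, was 243 FPKM in the library labelled knockout and 38.4 FPKM in wild type. Of 25 matrix receptors 12 were lower and 4 higher (median -0.83), with the collagen-binding integrin Itga1 at 3.94 FPKM in the library labelled knockout and 20.3 FPKM in wild type and the syndecan Sdc4 at 231 FPKM in the library labelled knockout and 17.0 FPKM in wild type. TGF-beta ligands, receptors and targets had 5 of 25 genes lower and 5 higher (median -0.26), both shares near those of all genes. Tgfbi, a secreted TGF-beta target, was 154 FPKM in the library labelled knockout and 26.5 FPKM in wild type. Nrros, which holds latent TGF-beta on macrophages and microglia, was 46.6 FPKM in the library labelled knockout and 9.44 FPKM in wild type. At the lower end Tgfbr3 was 11.7 FPKM in the library labelled knockout and 41.1 FPKM in wild type. Lrrc32 was 4.22 FPKM in the library labelled knockout and 14.2 FPKM in wild type.

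**Figure D4:**
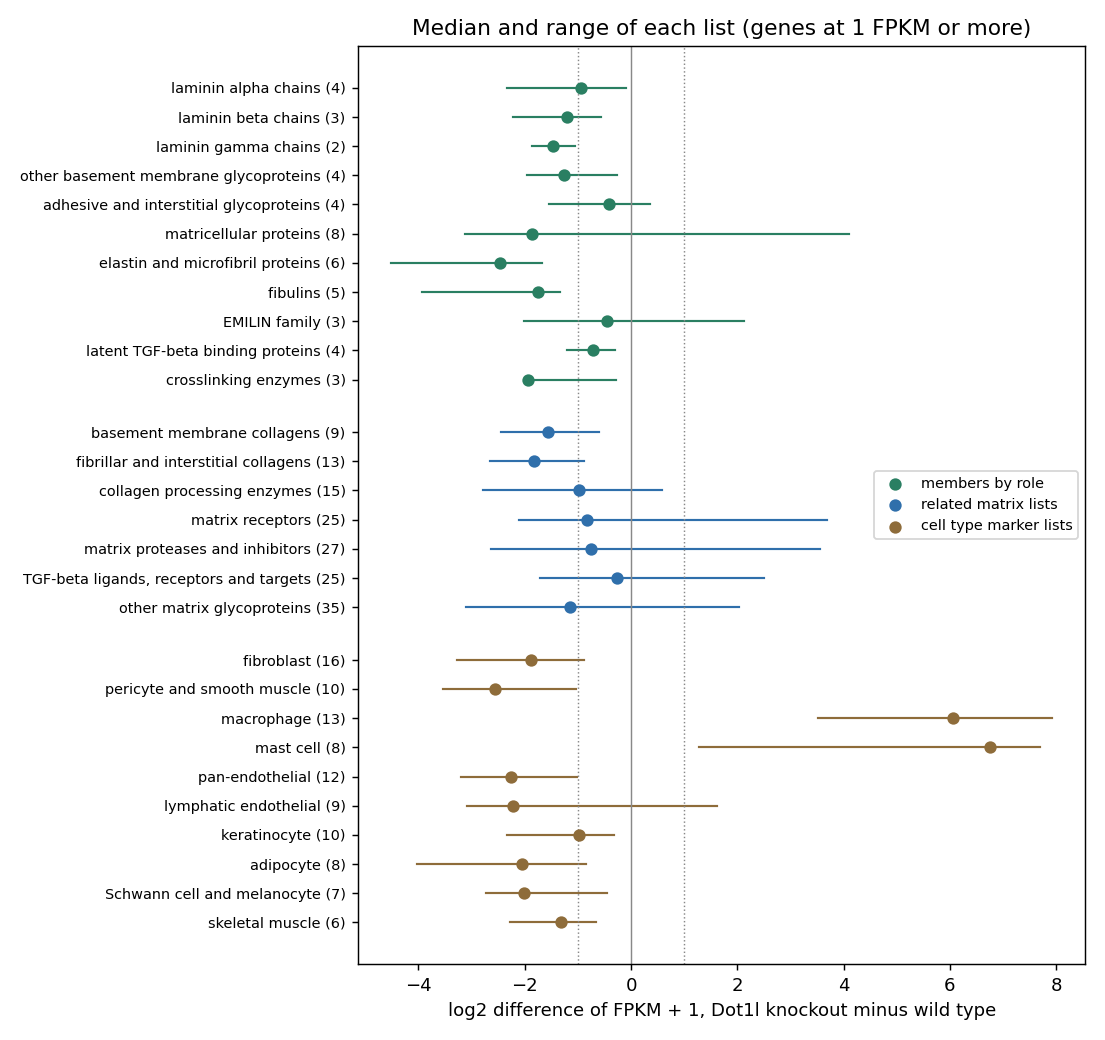
Median (point) and range (line) of the log2 difference of FPKM + 1, Dot1l knockout minus wild type, for the members by role (green), related matrix lists (blue) and cell type marker lists (brown), over the genes at 1 FPKM or more (number in brackets). Fibroblast, pericyte and endothelial markers lie on the same side as most members, and macrophage and mast cell markers on the other.

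Markers of fibroblasts and mural cells, which make many of these proteins, were lower in the same library, while the macrophage and mast cell markers given above were higher. Of 16 fibroblast markers 15 were at least 2-fold lower (median -1.89), with sums of 961 FPKM in the library labelled knockout and 3751 FPKM in wild type and none at 0. Col1a1, Col1a2, Col3a1 and Dpt of this list are also in the matrix lists above and make up 800 FPKM of that total in the library labelled knockout and 2739 FPKM in wild type. All 12 other fibroblast markers were lower (median -1.89), with sums of 160 FPKM in the library labelled knockout and 1012 FPKM in wild type. All 10 pericyte and smooth muscle markers at 1 FPKM or more were lower (median -2.55), with sums of 43.6 FPKM in the library labelled knockout and 274 FPKM in wild type and none at 0. Of 10 keratinocyte markers 5 were lower (median -0.98; sums of 100 FPKM in the library labelled knockout and 214 FPKM in wild type). Adipocyte markers had 7 of 8 lower (sums of 359 FPKM in the library labelled knockout and 1825 FPKM in wild type). Schwann cell and melanocyte markers had 5 of 7 lower (17.7 FPKM in the library labelled knockout and 72.9 FPKM in wild type). Skeletal muscle markers had 4 of 6 lower (13.3 FPKM in the library labelled knockout and 42.6 FPKM in wild type). Myod1, which did not reach 1 FPKM, was 0 in the library labelled knockout and 0.705 FPKM in wild type. Lymphatic endothelial markers had 7 of 9 lower and 1 higher (sums of 752 FPKM in the library labelled knockout and 1515 FPKM in wild type). The part of these cells in the members' differences was not tested.

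Exons of some members overlap exons of another listed protein-coding gene on the opposite strand, among them Thbs3 with Mtx1, Efemp2 with Mus81 and Mfap4 with Mapk7. The sources used here do not say whether the authors counted by strand, so reads in those stretches may belong to either gene. The shared stretches of these pairs run from 89 to 318 bases.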

How the data were processed

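Total RNA from embryonic skin LECs, pooled per genotype, was made into libraries with the ScriptSeq v2 kit after an RNA integrity number above 7.0, per the labels' protocols. The submitters' processing notes name STAR 2.5.2b, Cufflinks 2.2.1, Cuffnorm, R 3.3.2 and the build mm9, without roles or order; the annotation, the strand setting and any further scaling are not stated there. The authors deposited 1 FPKM value per gene symbol and library. The unit was taken from the tools named and from the values.

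The members and all gene lists were chosen with earlier results of these data known. Both libraries were compared in Python 3.11.15 as log2(FPKM + 1), knockout minus wild type, over genes with at least 1 FPKM in either library. No test was made, since each genotype has 1 library. The counting code was checked on simulated data, in well-expressed genes with changes away from the threshold. That check does not cover calls near the threshold or at low FPKM. Named genes are all members, Dot1l, and genes from the 2 highest and 2 lowest of each related list; markers named as listed at 0 or shared with a matrix list, Lyve1, Prox1, Stab2 and the overlapping genes were added. Depth was estimated by scanning 500 depths over values of up to 5 fragments, in genes whose single annotated transcript is 2500 nt or longer, taking fragments as 200 nt. The best depth put 76.0% of 175 values in the library labelled knockout and 83.0% of 159 wild-type values within 0.1 of a whole fragment. Fragments behind a member use its longest GENCODE M21 coding transcript and are approximate. PCR copies are not independent molecules, so intervals cover counting error only. Protein sequences were not used here.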

Additional observations from a re-analysis of the deposited data

How the results depend on the processing

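No paired analysis was possible because there is a single library of each genotype, which also means that none could be left out. A limit of 1.5 times just admits a fall from 3 to 2, so it says little about the higher members. The counts of 31 lower and 3 higher members stayed within that limit under the alternatives tried. These were pseudocounts of 0.1 and 5, scaling by the total (1000000), by the upper quartile and by the median gene, dropping the minimum or raising it to 5 FPKM, calling at 1.5-fold or at 3-fold, and, chosen after seeing the data, keeping genes with a mean of at least 10 FPKM. Leaving out members that are cell type markers changed nothing, since none is in those lists. Lower members ranged from 24 to 33 and higher ones from 2 to 3, out of 33 to 47 members kept. The share of all genes that were higher was 9.95% with a pseudocount of 5 and 19.4% with 0.1 (3 of 46 members each). It was 14.3% with scaling by the total (2 of 46) and 9.17% with no minimum (3 of 47). With the same upper quartile 32 of 46 members were lower, against 17.54% of all genes, and 3 higher, against 14.67%. With a minimum of 5 FPKM 29 of 39 were lower, against 15.02%, and 3 higher, against 17.52%. Beside these counts the share of all genes that were lower moved too: it was 6.93% with a pseudocount of 5 (24 of 46 members), 20.1% with 0.1 (32 of 46), 25.05% with scaling by the total (33 of 46) and 8.47% with no minimum (31 of 47). With a pseudocount of 5, Fbln1, Lamb2, Lamc3, Ltbp1, Ltbp4, Thbs4 and Vtn no longer reached 2-fold, and with scaling by the total Thbs1 did not. Tnxb became at least 2-fold lower with a pseudocount of 0.1 (-1.35), scaling by the total (-1.46) and the same upper quartile (-1.07). Nid2 became so with scaling by the total (-1.14). The median of -1.69 became -1.86 with a pseudocount of 0.1, -1.21 with 5, -2.10 with scaling by the total, -1.83 with the same upper quartile, -1.67 with the median gene at no difference, -1.68 with no minimum, -1.77 with a minimum of 5 FPKM and -1.77 with a mean of at least 10 FPKM. Each of the 31 lower members stayed below 0 and each of the 3 higher ones above 0 under every pseudocount and rescaling. Depth limits Vtn and Mfap5, which rest on about 2.92 and 4.18 fragments in the library labelled knockout.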
